A study of Mus musculus with 6 samples.

Results

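The 31 genes described here are 20 genes of cytosolic aminoacyl-tRNA synthetases and 11 genes of amino acid synthesis, transport and sensing, many of them known targets of the transcription factor ATF4. They were chosen by gene symbol, with the fold changes of the same comparison already known, so their values are given as a description and no test is made of them as a list. All 31 were found among 16426 genes in the deposited table, and all 31 were among the 14114 genes that the authors' comparison tested. The labels list 6 liver samples of male C57/BL mice: 3 from a model group exposed to 20% carbon tetrachloride (CCl4) for 10 weeks, a solvent that injures hepatocytes and leads to fibrosis, and 3 from a normal group given saline. The series design also names a group treated with CCl4 and the flavonoid didymin, to which none of the 6 labelled samples belongs. The deposited table sets one set of libraries, ly_A (set A), against another, ly_B (set B), and no sample label carries either name. Neither set is therefore tied to the CCl4, the normal or the didymin group below. No difference is given as an effect of CCl4 or didymin, and no value of a single library enters a result. All fold changes are log2 values of set A over set B, so a negative value means lower in set A. Depth is unknown from the columns used. The labels do not say whether the libraries of a group come from separate animals, so the p-values measure only the spread between these libraries.

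Each aminoacyl-tRNA synthetase joins an amino acid to its tRNA, and together they supply the ribosome. When an amino acid runs short, uncharged tRNA activates the kinase GCN2 (Eif2ak4), and when unfolded proteins build up in the endoplasmic reticulum, the kinase PERK (Eif2ak3) is activated. Both phosphorylate the initiation factor eIF2, which lowers translation in general and raises that of ATF4, a factor that induces synthetases, amino acid transporters and the enzymes of serine, asparagine and one-carbon metabolism. ATF4 binds with C/EBP proteins to a composite DNA element called CARE.

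The promoter windows below show the CARE letters next to the starts of members, since ATF4 is the known regulator of many of these genes. The motif searched was TGATGNAA on both strands of RefSeq windows (build GRCm38.p6) from 250 bases before to 50 bases after an annotated start. Of 31 members, 23 had a window in the table, and 6 of these 23 (26.1%) held the motif: 5 of 13 synthetases (38.5%) and 1 of 10 amino acid genes (10.0%). The share was 4.51% of 27025 genes with a window and 2.97% of the 11163 of them that the authors tested. Bases are printed 5′ to 3′ on the strand of the gene, and capitals mark the match, read on the opposite strand in Gars, Tars, Aars and Iars. Matches of Asns, Gars, Tars and the upstream match of Aars begin 23, 30, 15 and 112 bases before the start. Positions are counted from the start in the window table, which is not the outermost start of the RefSeq gene for Aars, Yars, Eprs, Farsa, Psph, Mthfd2 and Slc3a2. For Aars the start used is chr8:111033842, while the RefSeq gene begins at chr8:111027778. The Aars window labelled upstream therefore lies within the annotated gene. The matches of Yars, Iars and the other match of Aars begin at base 4, 8 and 10 of the transcript, and only 24 bases are shown there. The windows lie at chr6:7693210-7693269 (minus strand) for Asns, chr6:55037941-55038000 (plus) for Gars, chr15:11399659-11399718 (minus) for Tars, chr8:111033704-111033763 and chr8:111033843-111033866 (plus) for Aars, chr4:129189898-129189921 (plus) for Yars and chr13:49682129-49682152 (plus) for Iars.
Asns: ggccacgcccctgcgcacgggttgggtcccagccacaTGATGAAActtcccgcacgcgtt
Gars: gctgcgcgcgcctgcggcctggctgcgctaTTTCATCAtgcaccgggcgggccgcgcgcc
Tars: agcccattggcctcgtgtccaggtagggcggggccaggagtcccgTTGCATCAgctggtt
Aars, upstream: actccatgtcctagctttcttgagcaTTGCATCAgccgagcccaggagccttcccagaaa
Aars, transcribed: gggtcactTTTCATCAgagcgctc
Yars: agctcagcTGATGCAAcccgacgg
Iars: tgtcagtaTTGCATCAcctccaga

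A match describes letters and does not show that a factor binds there, and a window with no match says only that these letters are not in it. The full cyclic AMP element, TGACGTCA, stood in 0 of the 23 windows and in 3.36% of windows of tested genes, and the E-box CACGTG in 5 of 23 (21.7%) and in 11.2%. In the list of ATF4 regulators and targets, 9 of 24 windows (37.5%) held the CARE letters. The median was -0.89 for the 6 members with a match (from -1.63 in Iars to -0.44 in Aars) and -0.90 for the 17 without one (from -4.61 in Psat1 to 0.83 in Shmt2) per the authors' deposited table. These medians do not compare like genes, since the match was in 5 of 13 synthetases and 1 of 10 amino acid genes. All 6 with a match were lower in set A at an adjusted p under 0.05. Of the 17 without one, 12 were lower and 1 was higher, beside 17.7% and 18.1% of all genes tested. The difference between the groups was not tested. Psat1 and Phgdh, which had the largest differences, had no match in their windows.

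Among the 31 members, 25 were lower in set A and 1, Shmt2, was higher, at an adjusted p under 0.05 per the authors' deposited table. Of all 14114 genes tested there, 17.7% were lower and 18.1% were higher in set A; since the members were chosen on this comparison, nothing is read from the contrast of these shares. The median log2 fold change per the authors' deposited table was -0.88 for the 31 members and 0.07 for all genes tested. The synthetases lay between -1.63 and -0.24 around a median of -0.85, while the amino acid genes ran from -4.61 to 0.83 around a median of -1.70 per the authors' deposited table. The difference between the synthetases and the amino acid genes was not tested. In bulk liver, fewer cells of a type and less RNA per cell cannot be told apart.

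**Figure D1:**
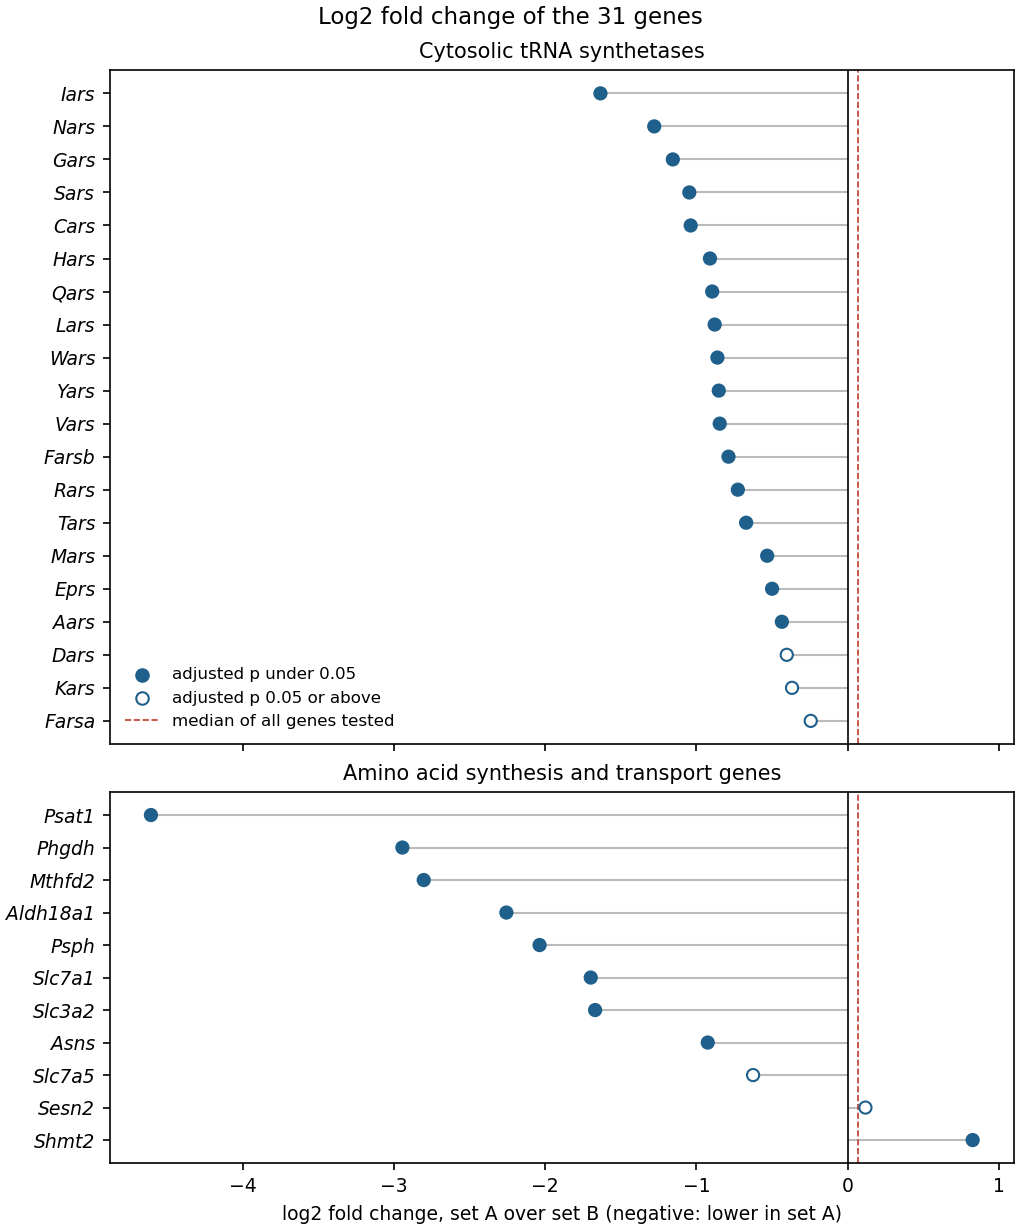
Log2 fold change of set A over set B per the authors' deposited table (x axis) for each of the 20 cytosolic synthetases (top) and 11 amino acid genes (bottom), 1 point a gene, filled where the adjusted p was under 0.05; the dashed line is the median of all genes tested (0.07). All 20 synthetases lie left of 0, from -1.63 to -0.24, while the amino acid genes reach from -4.61 to 0.83.

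All 20 synthetase values were negative per the authors' deposited table, and 17 of the 20 passed the threshold. The share lower in set A was 85% of the synthetases and 17.7% of all genes tested. Since the synthetases were chosen on this comparison, nothing is read from the contrast. Iars, which charges isoleucine, had the largest difference and was 3.11-fold lower in set A per the authors' deposited table (a log2 value of -1.63, adjusted p = 2.41e-09). Nars, the asparagine enzyme, followed at 2.43-fold lower in set A with an adjusted p below that of any other synthetase per the authors' deposited table (a log2 value of -1.28, adjusted p = 6.03e-12). The glycine enzyme Gars (2.23-fold), the serine enzyme Sars (2.07-fold) and the cysteine enzyme Cars (2.05-fold) were the only other synthetases that differed by at least 2-fold per the authors' deposited table, each lower in set A (largest adjusted p = 5.9e-05). Sars charges tRNA with serine, the product of the pathway whose 3 enzymes are described below.

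A further 9 synthetases lay close together, from -0.91 to -0.67 on the log2 scale per the authors' deposited table. These charge histidine (Hars, -0.91), glutamine (Qars, -0.90), leucine (Lars, -0.88), tryptophan (Wars, -0.86), tyrosine (Yars, -0.85), valine (Vars, -0.85), arginine (Rars, -0.73) and threonine (Tars, -0.67), with Farsb, the beta subunit of the phenylalanine enzyme, at -0.79 per the authors' deposited table (highest adjusted p = 0.00114). Lower still in size were Mars for methionine (-0.53, adjusted p = 0.0258), the bifunctional glutamate and proline enzyme Eprs (-0.50, adjusted p = 0.0203) and Aars for alanine (-0.44, adjusted p = 0.0334), all lower in set A per the authors' deposited table. Dars for aspartate (-0.40, adjusted p = 0.148), Kars for lysine (-0.37, adjusted p = 0.0959) and Farsa, the alpha subunit of the phenylalanine enzyme (-0.24, adjusted p = 0.369), did not pass per the authors' deposited table. Farsa and Farsb form one enzyme, and the difference between their values was not tested.

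Synthetases are divided by the fold of their catalytic domain into class I and class II. Class played no part in choosing them, but all were chosen with this comparison known. All 9 class I genes were lower in set A, with a median of -0.86, and 7 of 10 class II genes were, with a median of -0.73, per the authors' deposited table; Eprs holds both kinds of domain and is left out here. Of the synthetases, 8 are enzymes of the multi-synthetase complex, a cytosolic assembly held together by the scaffold proteins of Aimp1, Aimp2 and Eef1e1. Of the 8, 6 were lower in set A with a median of -0.63, and of the 12 others 11 were, with a median of -0.86, per the authors' deposited table. The scaffold genes Aimp2 (-1.60, adjusted p = 0.000104) and Eef1e1 (-1.12, adjusted p = 0.000212) were lower in set A, whereas Aimp1 stood at -0.24 (adjusted p = 0.285) per the authors' deposited table. Of all genes tested, 17.7% were lower in set A. Since the synthetases were chosen on this comparison, nothing is read from these counts. None of these differences between groups of synthetases was tested.

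Mitochondria use a separate set of synthetases, encoded by other nuclear genes for most amino acids, while Gars and Kars encode the enzymes of both compartments. Of 17 mitochondrial synthetases, 4 (23.5%) were lower in set A, near the 17.7% of all genes tested, and none was higher per the authors' deposited table, where an unadjusted p under 0.05 gave the same counts of 4 and 0. Their median was -0.16 per the authors' deposited table. The 4 were Mars2 (-1.03), Iars2 (-0.94), Ears2 (-0.85) and Yars2 (-0.73) per the authors' deposited table (highest adjusted p = 0.00488). Matching enzymes by amino acid gave 18 pairs, and in 16 of them the cytosolic gene had the lower value per the authors' deposited table. The exceptions were methionine and glutamate, with Mars at -0.53 and Mars2 at -1.03, and Eprs at -0.50 and Ears2 at -0.85 per the authors' deposited table. In 12 pairs the cytosolic gene passed as lower in set A and the mitochondrial one did not pass, in 4 pairs both passed and in 2 neither did per the authors' deposited table. The cytosolic genes are members chosen with these values known, so nothing is read from the counts of pairs. The pairs share Eprs and Fars2, and the difference within a pair was not tested.

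**Figure D2:**
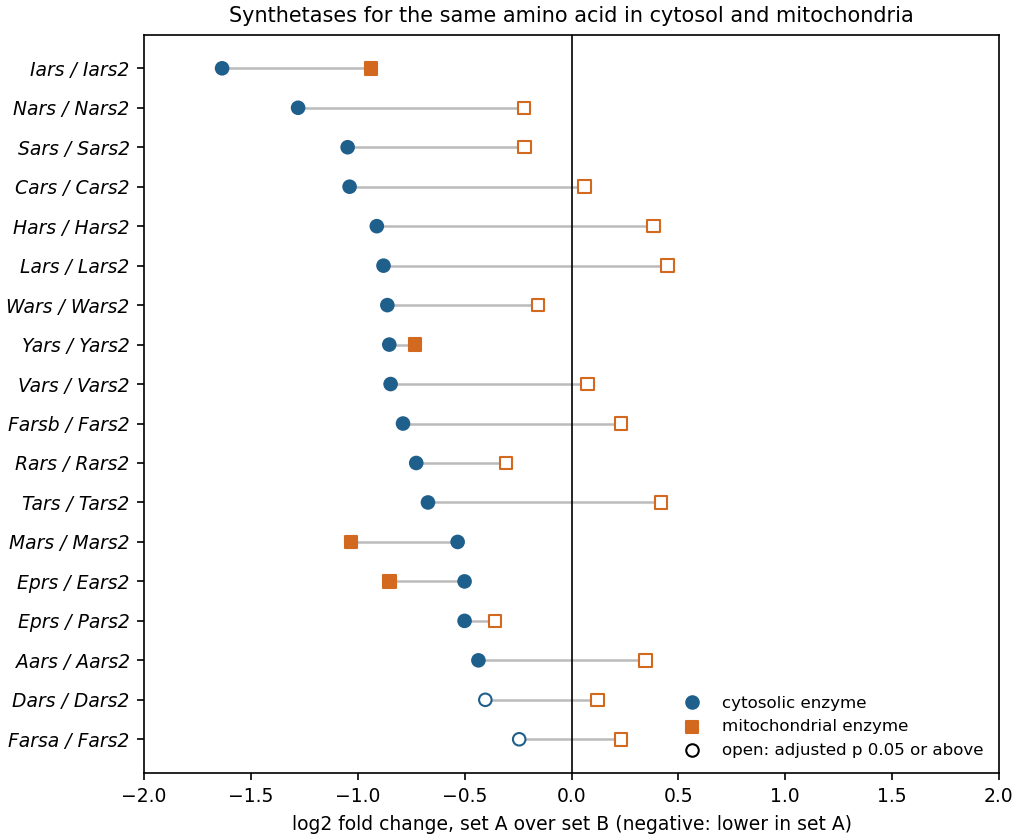
Log2 fold change of set A over set B per the authors' deposited table (x axis) for 18 pairs of synthetase genes that charge the same amino acid, with the cytosolic gene as a circle and the mitochondrial gene as a square, filled where the adjusted p was under 0.05. Circles lie left of squares in 16 of 18 pairs, and the squares of Mars2 and Ears2 lie left of their circles. The cytosolic genes were chosen with these values known, so nothing is read from the count.

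Serine is made from a glycolytic intermediate by 3 enzymes, and all 3 genes were lower in set A. Phgdh, the dehydrogenase of the entry step, was 7.70-fold lower in set A per the authors' deposited table (a log2 value of -2.94, adjusted p = 3.98e-06). Psat1, the aminotransferase of the middle step, was 24.4-fold lower in set A and had the largest difference of all 31 members per the authors' deposited table (a log2 value of -4.61, adjusted p = 6.66e-22). It ranked 47 of 14114 when tested genes were ordered from the lowest log2 value per the authors' deposited table. Psph, the phosphatase of the final step, was 4.11-fold lower in set A per the authors' deposited table (a log2 value of -2.04, adjusted p = 6.26e-12). Read numbers were not examined, so the size of a large fold change such as that of Psat1, or of Slc7a11 and Aldh1l2 named below, is a fitted value.

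Serine passes one-carbon units to folate in both mitochondria and cytosol. Shmt2, the mitochondrial enzyme that splits serine into glycine and a one-carbon unit, was 1.77-fold higher in set A per the authors' deposited table (a log2 value of 0.83, adjusted p = 0.00123). Mthfd2, the mitochondrial dehydrogenase that acts on that unit next, was 6.98-fold lower in set A per the authors' deposited table (a log2 value of -2.80, adjusted p = 9.69e-10). Of other mitochondrial folate genes, the formate-producing ligase Mthfd1l (-3.50, adjusted p = 3.94e-23) and the dehydrogenase Aldh1l2 (-4.92, adjusted p = 2.56e-06) were lower in set A, and Mthfd2l stood at 0.45 (adjusted p = 0.468) per the authors' deposited table. Of 4 cytosolic folate genes described here, 3 were higher in set A: Mthfs at 1.07, Aldh1l1 at 0.94 and Mthfd1 at 0.71 per the authors' deposited table (highest adjusted p = 0.0346). Shmt1, the cytosolic counterpart of Shmt2, stood at 0.32 (adjusted p = 0.252) per the authors' deposited table. The division by compartment was made after these values were seen and was not tested, and Shmt2 was called in the direction of the cytosolic genes. Across the 20 reported genes of the other serine, glycine and folate list, 4 (20%) were lower and 5 (25%) were higher in set A per the authors' deposited table. These shares are near the 17.7% and 18.1% of all genes tested, so nothing is read from the counts. The median of the list was 0.19 per the authors' deposited table. Besides the genes above, the genes called in this list were the purine enzyme Atic (-1.54, adjusted p = 1.1e-05) and the glycine cleavage gene Gldc (-0.65, adjusted p = 0.0266), both lower in set A per the authors' deposited table. The glycine cleavage gene Amt (0.83, adjusted p = 0.00442) and the serine dehydratase Sds (0.98, adjusted p = 0.00808) were called higher in set A per the authors' deposited table.

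**Figure D3:**
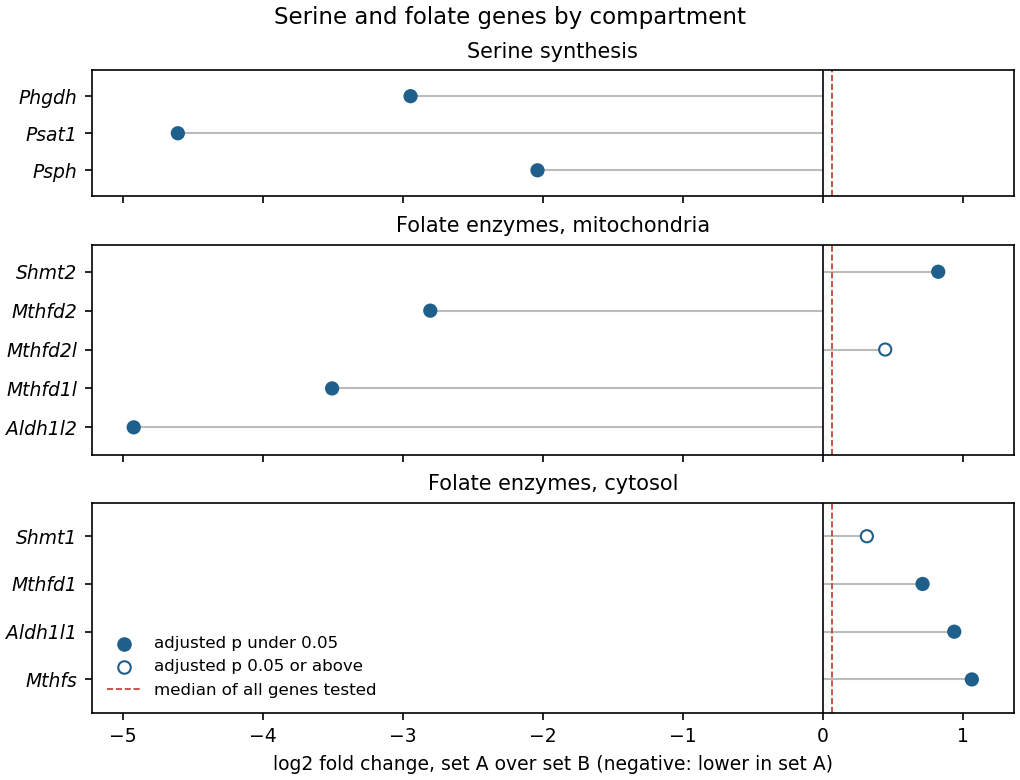
Log2 fold change of set A over set B per the authors' deposited table (x axis) for genes of serine synthesis (top), mitochondrial folate enzymes (middle) and cytosolic folate enzymes (bottom), filled where the adjusted p was under 0.05; the dashed line is the median of all genes tested (0.07). The 3 serine genes and Mthfd2, Mthfd1l and Aldh1l2 lie between -4.92 and -2.04, while Shmt2 and the cytosolic enzymes shown lie between 0.32 and 1.07.

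The remaining amino acid enzymes among the members differed in size. Aldh18a1, which makes the common precursor of proline and ornithine, was 4.78-fold lower in set A per the authors' deposited table (a log2 value of -2.26, adjusted p = 1.52e-07). Asns, the asparagine synthetase and a standard marker of the ATF4 response, was 1.90-fold lower in set A and only just passed per the authors' deposited table (a log2 value of -0.93, adjusted p = 0.0473). Its call ended when the adjustment was made over all rows of the table. The asparagine enzyme Nars, which uses the product of Asns, had a larger difference than Asns (-1.28 against -0.93 per the authors' deposited table). Pycr1, which completes proline synthesis, stood at -0.72 (adjusted p = 0.619) per the authors' deposited table. In the list of 13 proline, glutamate and ornithine genes, of which 12 were tested, 1 (8.33%) was lower and 3 (25%) were higher in set A per the authors' deposited table. The shares of all genes tested were 17.7% and 18.1%, and with so few genes nothing is read from these counts. The largest called difference each way was that of Glud1 at -0.98 (adjusted p = 5.15e-09) and Glul at 5.06 (adjusted p = 4.36e-180) per the authors' deposited table.

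Of the 3 transport genes, Slc3a2 and Slc7a1 were lower in set A. Slc3a2, the heavy chain that carries several amino acid exchangers to the cell surface, was 3.18-fold lower in set A per the authors' deposited table (a log2 value of -1.67, adjusted p = 3.91e-08). Slc7a1, a carrier of arginine and lysine, was 3.25-fold lower in set A per the authors' deposited table (a log2 value of -1.70, adjusted p = 0.00904). Slc7a5, the leucine-transporting light chain that pairs with Slc3a2, did not pass per the authors' deposited table (a log2 value of -0.63, adjusted p = 0.28). Slc7a11, the cystine carrier that also pairs with Slc3a2, stood at -7.91 (adjusted p = 7.74e-21), and the neutral amino acid carrier Slc1a4 at -3.42 (adjusted p = 2.43e-21), both lower in set A per the authors' deposited table. The carrier Slc1a5 went the other way and was higher in set A at 1.07 (adjusted p = 0.000942) per the authors' deposited table. Across 30 other amino acid carriers, of which 27 were tested, 6 (22.2%) were lower and 7 (25.9%) were higher in set A per the authors' deposited table. These shares are near the 17.7% and 18.1% of all genes tested, so nothing is read from the counts. The median of the carriers was -0.03 per the authors' deposited table. The largest difference towards set A in that list was that of the glutamate carrier Slc1a2 (8.27, adjusted p = 1.49e-126) per the authors' deposited table. Sesn2, a leucine-binding inhibitor of the growth kinase mTORC1, stood at 0.12 (adjusted p = 0.725) per the authors' deposited table.

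Genes that act above ATF4 or beside the members were also described. Of 26 ATF4 regulators and targets, 12 (46.2%) were lower and 4 (15.4%) were higher in set A per the authors' deposited table. The shares of all genes tested were 17.7% and 18.1%. The list was chosen with earlier results known, so the contrast of these shares was not tested. Its median was -0.59 per the authors' deposited table. Slc7a11, Mthfd1l and Aldh1l2, all lower in set A, and Pycr1 are in this list and also in a list described above. Atf4 itself was 1.41-fold lower in set A per the authors' deposited table (a log2 value of -0.49, adjusted p = 0.012). The PERK gene Eif2ak3 was lower in set A (-1.47, adjusted p = 3.58e-08), and the GCN2 gene Eif2ak4 stood at -0.47 (adjusted p = 0.099) per the authors' deposited table. ATF4 is controlled mainly by translation, which RNA abundance does not measure. Among known ATF4 targets, Ddit3, the factor CHOP, stood at -2.39 and the pseudokinase Trib3 at -1.74, both lower in set A per the authors' deposited table (highest adjusted p = 9.98e-08). The glutathione-degrading enzyme Chac1 (-0.69, adjusted p = 0.233), the factor Atf5 (-0.11, adjusted p = 0.706), the hormone Fgf21 (-0.35, adjusted p = 0.547), the cytokine Gdf15 (0.77, adjusted p = 0.126) and the mitochondrial enzyme Pck2 (0.13, adjusted p = 0.722) did not pass per the authors' deposited table. The stress factors Nupr1 (-3.36) and Atf3 (-2.94) and the ATF4 partner Cebpg (-0.67) were also lower in set A per the authors' deposited table (highest adjusted p = 0.00264). Higher in set A were Stc2 (1.74, adjusted p = 0.0459), the C/EBP factor Cebpb (1.69, adjusted p = 1.37e-15), the lipoprotein receptor Vldlr (1.68, adjusted p = 0.00149) and the cysteine-producing enzyme Cth (1.45, adjusted p = 0.000319) per the authors' deposited table.

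**Figure D4:**
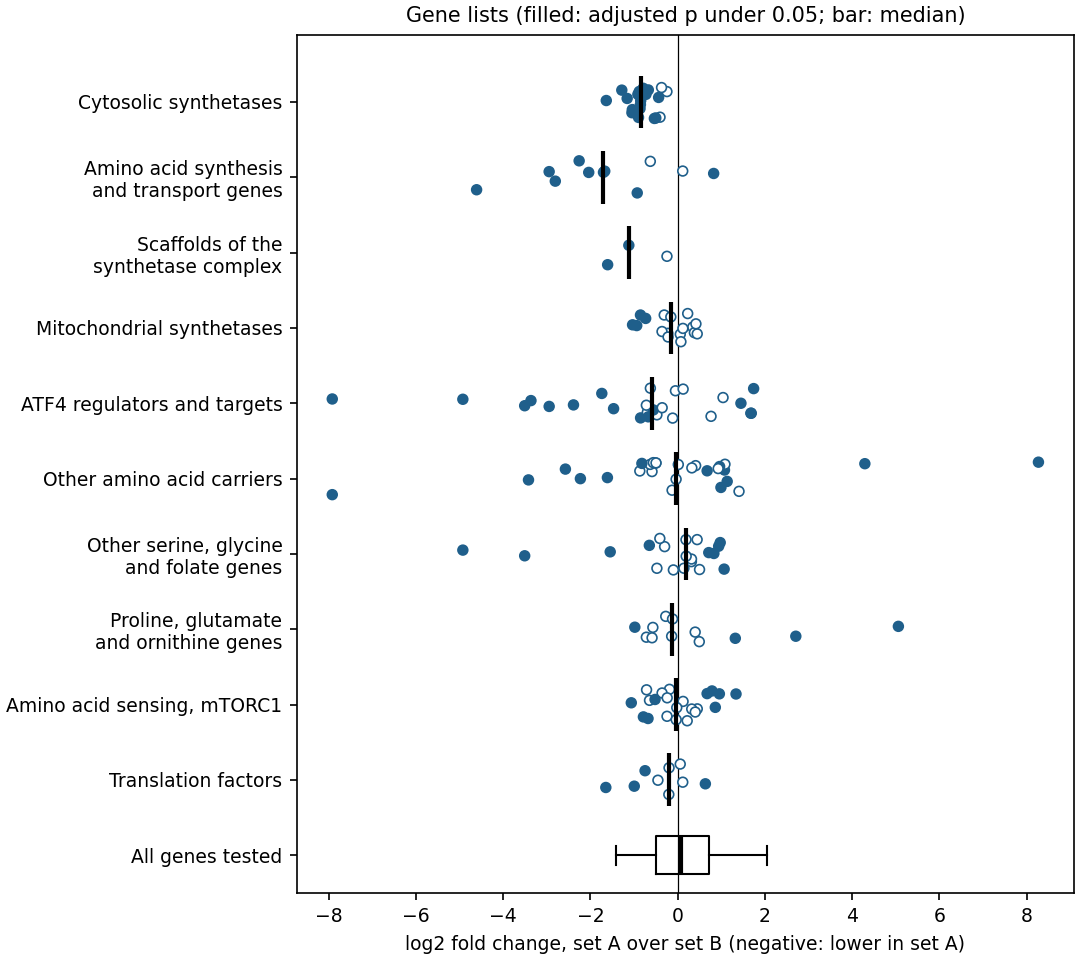
Log2 fold change of set A over set B per the authors' deposited table (x axis) for the tested genes of 10 lists, 1 point a gene, filled where the adjusted p was under 0.05, with a black bar at each list's median; the box at the bottom shows the quartiles and median of all genes tested, with whiskers at percentiles 5 and 95. A gene that belongs to more than 1 list has a point in each. All cytosolic synthetases lie left of 0, and the medians of the carriers, sensing genes and other serine and folate genes lie between -0.03 and 0.19.

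Markers of several cell types were called in the same comparison, in which 18.1% of all genes tested were higher and 17.7% were lower in set A. Higher in set A were 4 of 4 endothelial markers (100%), 4 of 7 lymphocyte markers (57.1%), 2 of 5 macrophage markers (40.0%) and 3 of 8 hepatocyte markers (37.5%) per the authors' deposited table. The called genes with the largest values were Stab2 of endothelium (1.77), Cd3e of T cells (1.80), Clec4f of Kupffer cells (2.63) and Apoa1 of hepatocytes (1.22) per the authors' deposited table (highest adjusted p = 0.0292). Lower in set A were 1 hepatocyte marker (Apob, -1.07), 1 of 5 tested stellate cell markers (Pdgfrb, -0.67) and 1 of 4 cholangiocyte markers (Sox9, -1.68) per the authors' deposited table (highest adjusted p = 0.00842). Alb, the albumin gene of hepatocytes, stood at 0.19 (adjusted p = 0.565) per the authors' deposited table. The part of cell composition in the members' values was not tested, and marker levels were not examined.

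Other ways of calling changed how many members passed. At an adjusted p under 0.01 per the authors' deposited table, 21 members were lower and 1 was higher in set A, beside 12.7% and 12.3% of all genes tested. With a difference of at least 2-fold as well, 12 members were lower and 0 were higher in set A, beside 7.85% and 10.9%. With the authors' p-values adjusted over all 16426 rows, 24 were lower and 1 was higher in set A, beside 14.6% and 15.0% of the rows. In GENCODE M21, exons of 8 members overlap those of another gene, and for 6 of these members the overlap includes a protein-coding gene. Psph shares 452 exon bases on opposite strands with Cct6a, annotated there as a processed transcript. Mars and Ddit3 share 68 exon bases on opposite strands, Farsb and Sgpp2 share 248, and Hars and Hars2 share 195. Aars shares 1326 with Exosc6 on the same strand. Whether the libraries and the counting kept strands apart is not given in the sources used here. Reads in bases shared on opposite strands could therefore count for either gene. Strand would not separate reads in the bases that Aars and Exosc6 share.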

How the data were processed

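RNA of 6 mouse liver samples was extracted with Trizol and made into libraries with a NEBNext kit, per the labels' protocols. DESeq2 (version not given) and the build mm9 come from the submitters' processing notes; the aligner, the counter and the gene models they used are not stated in any source here. The deposited table holds the log2 fold change, p-value and adjusted p-value that the authors fitted for each gene, per the file headers. Another 18 columns of single libraries match no sample label and enter no result, so no depth, SD or count per library is given. The fold change is taken as ly_A over ly_B, the order of the comparison's name; those columns were looked at only for this, by eye in the first lines, where a negative value went with lower values of ly_A. An adjusted p of exactly 1 stood in 2312 rows, taken as not tested. Over the remaining 14114 rows, a Benjamini-Hochberg adjustment of the p-values gave back the adjusted values, with a relative difference of at most 9.47e-13. Members, lists and alternatives were chosen with earlier results of these data known. The text names all members, 18 genes picked by symbol and, per list, called genes with the largest difference each way or, where none is called, the gene with the smallest p; other genes it names were added after their values were seen. In the list of other serine, glycine and folate genes, 1 gene is not reported here; it was left out of the counts and median after its value was known, for a reason unrelated to that value. The cell type marker lists are given by counts and examples. Promoter windows come from RefSeq (GRCm38.p6), matched by symbol or synonym, and exon overlaps from GENCODE M21, another build than mm9, used only for which genes overlap. Counting, adjustment and motif search were tested on simulated data (Python 3.11.15, pandas 2.3.3, numpy 2.4.6).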

Additional observations from a re-analysis of the deposited data

How the results depend on the processing

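No paired analysis was possible because the library columns match no sample label, so no labelled replicate number belongs to them. Leaving out a library was not run, since columns with no matching label were kept out of every fit. With a 2-fold difference as well, the members lower in set A numbered 12, those higher 0, the synthetases lower 5 and the amino acid genes higher 0, and 1108 and 1542 of all genes were lower and higher, as counted from the authors' deposited table. This limit removes genes by its construction. At an adjusted p under 0.01, the calls of Aars, Eprs, Mars and Asns ended, and with the adjustment over all rows that of Asns did. The shorter motif TGATG stood in 12 of 23 member windows (52.2%) against 32.3% of windows of tested genes, a smaller contrast than for TGATGNAA (26.1% against 2.97%). The longer TGATGCAA stood in 4 of 23 (17.4%) against 0.824%. The medians of the synthetases and of the amino acid genes moved to -0.92 and -1.77 when the median of all genes was subtracted, and were -0.80 and -1.69 as means.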

Other observations

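The kinase mTORC1 promotes translation when amino acids are present. Of 22 genes of its amino acid sensing branch, 4 (18.2%) were lower and 5 (22.7%) were higher in set A, near the 17.7% and 18.1% of all genes tested per the authors' deposited table, so nothing is read from these counts about the list. Its median was -0.03 per the authors' deposited table. The GTPase Rraga stood at -1.06 (adjusted p = 0.00254) and the kinase gene Mtor at -0.68 (adjusted p = 0.000224), both lower in set A per the authors' deposited table. Sesn1, a paralog of Sesn2, was 2.53-fold higher in set A per the authors' deposited table (a log2 value of 1.34, adjusted p = 2.29e-05). The lysosomal anchor genes Lamtor2 (0.79), Lamtor4 (0.96) and Lamtor5 (0.86) were higher in set A per the authors' deposited table (highest adjusted p = 0.00273).

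Among 9 translation factors, 3 (33.3%) were lower and 1 (11.1%) was higher in set A, beside 17.7% and 18.1% of all genes tested, per the authors' deposited table. With so few genes, nothing is read from these counts. Gspt1 (-1.65, adjusted p = 5.42e-10) and Etf1 (-0.99, adjusted p = 0.000206), which form the complex that ends translation, and Eif5a (-0.75, adjusted p = 0.000162) were lower in set A per the authors' deposited table. The elongation factor Eef1a1, which brings charged tRNA to the ribosome, stood at -0.20 (adjusted p = 0.473), and Eef1d was higher in set A at 0.64 (adjusted p = 0.00174) per the authors' deposited table.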
